A study of Mus musculus with 6 samples.

Results

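Levels of 34 genes of the GABA system and its interneurons were examined in whole brains of control and PLDP mice. The genes were listed by name and role, with earlier results of these data known: 5 alpha, 2 beta and 2 gamma subunits of the GABA-A receptor, 3 genes for its delta, epsilon and theta subunits, both GABA-B receptor subunits, 6 genes for making, moving and breaking down GABA, 7 peptide and class markers of interneurons, and 7 transcription factor or long noncoding RNA genes of that lineage. All 34 were found among the 60354 features of the count files, and all 34 were among the 18580 features with enough counts to be tested. Every mouse was a male C57BL/6NCrSlc animal that was 16 weeks old when the diets began. For 16 weeks the 3 PLDP mice (mice 17, 22 and 26) ate a modified AIN-93M diet containing 20% PLDP, a protease-treated porcine liver product. The 3 control mice (mice 2, 5 and 10) ate modified AIN-93M without PLDP, adjusted for calories. Both groups then went through the same series of behavioral tests, during which PLDP was not given, and brain RNA was taken afterwards. The comparison therefore reads brains after the diet and the tests, and the question asked of it was whether PLDP ingestion altered brain gene expression.

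GABA is the main inhibitory transmitter of the adult brain. Glutamate decarboxylase makes it from glutamate, a vesicular transporter loads it into synaptic vesicles, and membrane transporters and GABA transaminase end its action. GABA-A receptors are chloride channels built of 5 subunits, whose makeup sets where the receptor sits and how it responds to drugs, whereas GABA-B receptors are G protein-coupled dimers. Interneurons of cortex and hippocampus are sorted into classes by proteins and peptides such as parvalbumin, somatostatin and vasoactive intestinal peptide, and arise under the control of Dlx, Nkx2-1 and Lhx6 transcription factors.

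Levels are given in CPM, the count of a gene scaled to the TMM-adjusted total of its library. PLDP mouse 17 stood apart from the other PLDP mice. A chi-square comparison of counts over genes gave 5.33 per degree of freedom between mice 17 and 22 and 5.03 between mice 17 and 26, against 2.44 between mice 22 and 26 and 2.36 to 3.12 among the control mice. Between the diets, mouse 17 gave 4.48 to 4.83 against the control mice. Mice 22 and 26 gave 2.93 to 4.47, and against control mouse 10 their values of 3.09 and 2.93 lay within the range among control mice. Totals ran from 18797061 to 23938729 counts over the 6 mice, and mouse 17 had 21481847. Mouse 17 had the lowest level of all 6 mice for 13 of the 34 genes, and the other mice had the lowest for 2 to 8 each. Over all tested features mouse 17 was the lowest for 21%. Regional markers also differed between the diets. Of 14 tested hindbrain and spinal cord markers 13 were lower in PLDP mice. All 18 markers listed, tested or not, summed to 78.4 to 122 CPM in PLDP mice and 156 to 172 CPM in control mice.

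Differences between the diets over these genes were small. With edgeR's quasi-likelihood test at an unadjusted p under 0.05, 3 of the 34 genes were lower in PLDP mice (Abat, Gabra5 and Gabrg1) and 0 were higher, which is 8.82% of them. Over all features tested the same rule called 8.6%, with 4.91% higher and 3.69% lower, so the share among the GABA genes was close to the background. None of the 34 had a Benjamini-Hochberg adjusted p under 0.05, the lowest being 0.484 for Abat, and 6 features (0.0323%) did over the whole table. The log2 fold changes, PLDP over control, ran from −0.14 for Gabrg1 to 0.16 for Gabrg3, with 17 above 0 and 17 below. Their median was −0.0019, beside −0.00062 for all features tested, and the median size without sign was 0.060 beside 0.074. The 95% interval of the fold change lay within 1.25-fold in either direction for 29 of the 34 genes and for 58.0% of all features. The other 5 were Gabrg3, Gabre, Gabrq, Dlx6os1 and Nkx2-1.

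**Figure D1:**
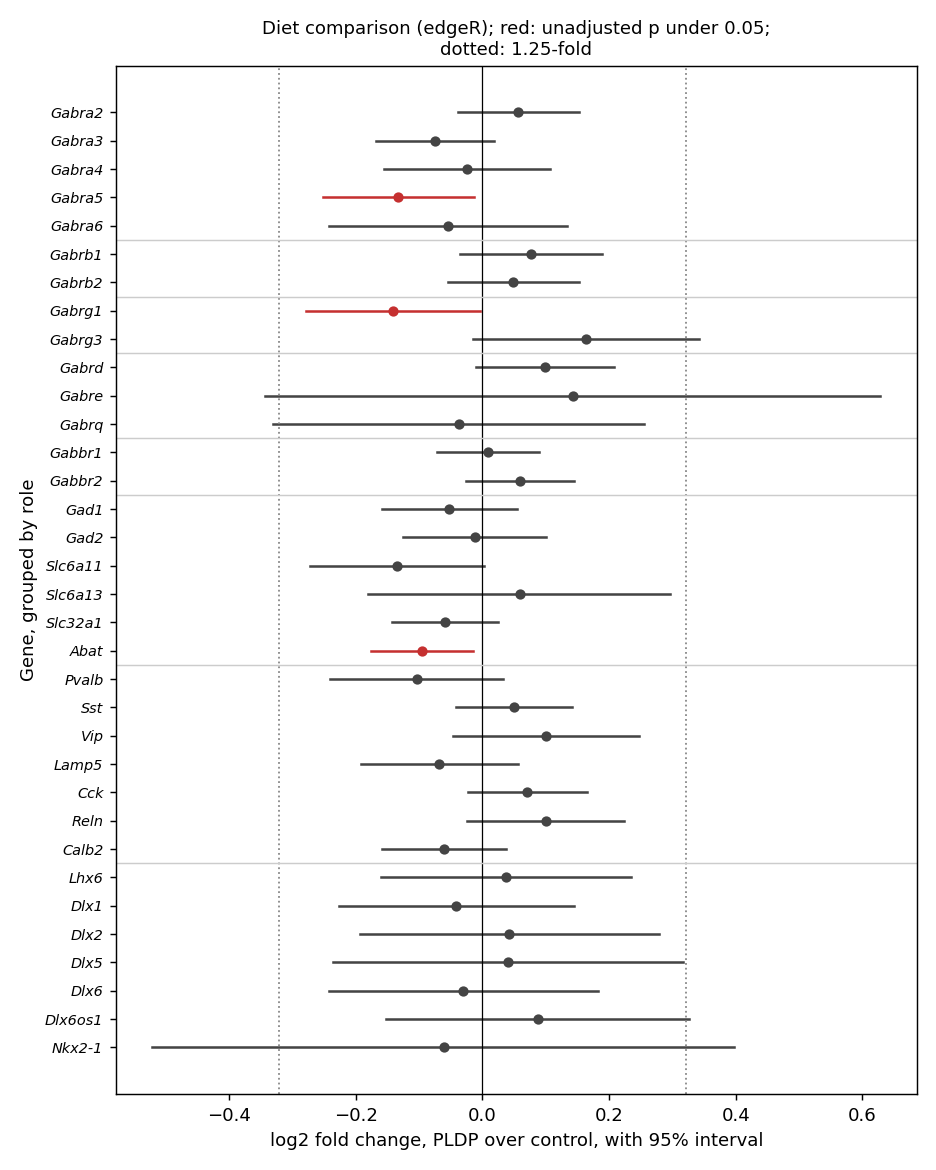
Log2 fold change of each gene, PLDP over control (x axis), with its 95% interval from edgeR as a horizontal line, 3 mice per diet. Red marks the 3 genes with an unadjusted p under 0.05, all lower in PLDP mice, and 29 of the 34 intervals stay inside the dotted lines at 1.25-fold.

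The genes whose diets did not overlap were 6 in number, 17.6% of the 34, where 14.2% of all features tested separated the diets in the same way. In 5 of them every PLDP mouse was below every control mouse (Gabra3, Gabra5, Gabrg1, Slc32a1 and Abat), and in 1, Vip, every PLDP mouse was above. The background shares were 6.90% below and 7.29% above. Brain tissue is a mixture of cells, so fewer cells of a type and less RNA per cell cannot be told apart in these libraries.

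**Figure D2:**
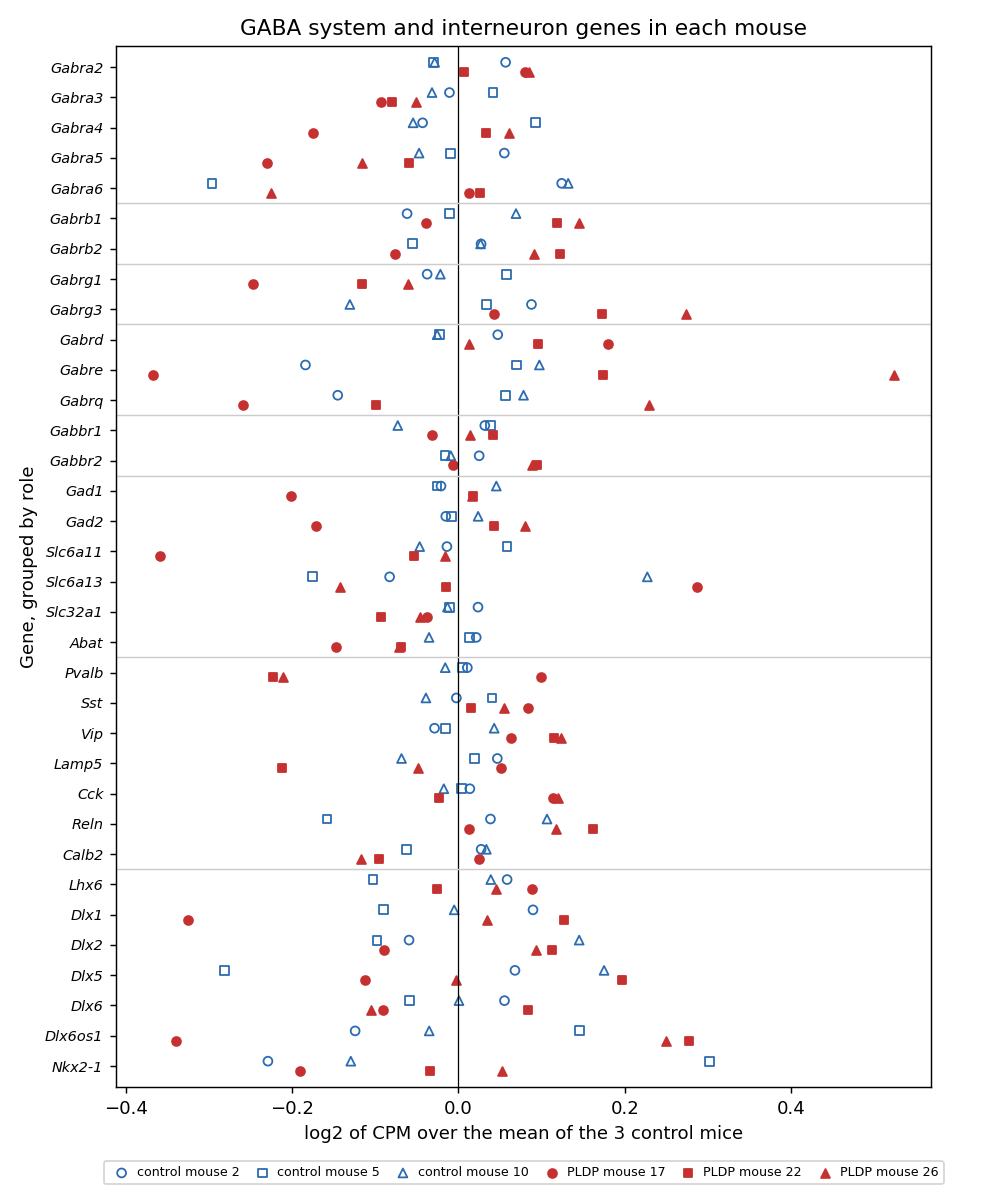
Level of each gene in each mouse, as log2 of CPM over the mean of the 3 control mice (x axis), with genes grouped by role. Open blue symbols are control mice and filled red symbols are PLDP mice. Mouse 17 (filled circle) is the lowest of 6 for 13 genes, among them Gad1, Gad2, Slc6a11, Dlx1 and Dlx6os1.

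Gabra5 encodes the alpha5 subunit, found largely in extrasynaptic receptors of the hippocampus, and lies on chromosome 7 (GRCm38, 57407672 to 57510059, minus strand). Its level was 59.5, 56.9 and 55.4 CPM in control mice 2, 5 and 10, and 48.8, 55.0 and 52.9 CPM in PLDP mice 17, 22 and 26. Every PLDP mouse was below every control mouse, mouse 22 by a narrow margin. The log2 fold change was −0.13 (SE 0.056, 95% interval −0.25 to −0.014, edgeR adjusted p = 0.517). It passed the threshold in 3 of the 6 fits that left out a mouse. It missed it without mouse 17 (−0.086), without control mouse 2 and without control mouse 5, and also in DESeq2. An exon of Gabra5 overlaps the opposite-strand gene Gm9962, so reads there may be shared if counting ignored strand.

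Gabrg1 encodes the gamma1 subunit, a less common partner in receptors of a few brain regions and of glia, and lies on chromosome 5 (70751047 to 70842617, minus strand). Its level was 31.6, 33.7 and 31.9 CPM in the control mice and 27.3, 29.9 and 31.1 CPM in PLDP mice 17, 22 and 26. The diets again did not overlap, and mouse 17 was the lowest. The log2 fold change was −0.14 (SE 0.065, edgeR adjusted p = 0.568), and −0.090 without mouse 17. It passed the threshold in 1 of the 6 fits that left out a mouse, the one without PLDP mouse 26. It also missed it in DESeq2 and with upper-quartile factors.

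Since both receptor genes were lower in PLDP mice, the 250 bases before their RefSeq start sites (GRCm38.p6, minus strand) are shown. The windows are chr7:57510060-57510309 for Gabra5 and chr5:70842618-70842867 for Gabrg1, written 5′ to 3′ along the gene. Capitals mark matches to TAATTA, the core that Dlx, Lhx and other homeodomain proteins recognize, searched on both strands (the motif is its own reverse complement).
Gabra5: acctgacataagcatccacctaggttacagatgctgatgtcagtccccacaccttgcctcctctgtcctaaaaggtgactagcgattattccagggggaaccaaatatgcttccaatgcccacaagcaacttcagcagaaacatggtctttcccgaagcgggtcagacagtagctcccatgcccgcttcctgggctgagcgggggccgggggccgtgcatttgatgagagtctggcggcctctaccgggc
Gabrg1: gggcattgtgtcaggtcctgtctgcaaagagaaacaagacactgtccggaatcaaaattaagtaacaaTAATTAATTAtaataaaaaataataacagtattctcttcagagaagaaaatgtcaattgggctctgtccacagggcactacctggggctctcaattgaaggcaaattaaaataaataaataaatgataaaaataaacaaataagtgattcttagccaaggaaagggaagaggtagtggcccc
The Gabra5 window held 56.4% G and C and no TAATTA. The Gabrg1 window held 35.6% G and C and 2 overlapping matches, starting 182 and 178 bases before the start site. Of all 32851 RefSeq windows of this length, 4.84% held the motif. The 29 of the 34 genes found in the table had 40 windows, of which 3 held it, from 2 genes, Gabrg1 and Dlx6os1. A match is a description of the letters and not of a bound site.

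Among the other alpha subunits, Gabra2 took the most counts. Gabra2, whose subunit is common at the axon initial segment of forebrain neurons, was at 112, 105 and 105 CPM in control mice and 113, 108 and 114 CPM in PLDP mice. The diets overlapped (log2 fold change 0.057, SE 0.045, edgeR adjusted p = 0.770). Gabra3, whose subunit is found in monoaminergic and thalamic reticular neurons, was at 96.2, 99.8 and 94.8 CPM in control mice and 90.9, 91.7 and 93.6 CPM in PLDP mice. Every PLDP mouse was lower, yet the difference did not pass the threshold (log2 fold change −0.075, SE 0.044, edgeR adjusted p = 0.667). Gabra4, a subunit of extrasynaptic receptors in thalamus, striatum and dentate gyrus, differed by −0.024 with overlapping diets.

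Gabra6, the alpha subunit of cerebellar granule cells, varied more between mice than between diets. Its mean was 101 ± 16.3 CPM in control mice and 97.4 ± 9.27 CPM in PLDP mice (SD, n = 3 each), and the log2 fold change was −0.054 (edgeR adjusted p = 0.914). The lowest mice were control mouse 5 at 82.6 CPM and PLDP mouse 26 at 86.8 CPM, and the other 4 mice were at 102 to 111 CPM. The same mice were the lowest for the summed level of 10 granule cell markers, at 1264 CPM in control mouse 5 and 1245 CPM in PLDP mouse 26, against 1385 to 1411 CPM in the others. Of these 10 markers, 1 was higher and 1 lower in PLDP mice with all mice (10.0% each, beside 4.91% and 3.69% of all features), 4 were lower without PLDP mouse 17 and 2 without control mouse 5. Both measures come from the same 6 libraries, and the likeness is a description. Without control mouse 5, Gabra6 passed the threshold lower with a log2 fold change of −0.18.

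The beta subunits, which form part of the GABA binding site, did not pass the threshold. Gabrb2 was at 253, 239 and 253 CPM in control mice and at 236, 270.3 and 265 CPM in PLDP mice 17, 22 and 26. Mouse 17 was below all controls and the other PLDP mice were above them. The log2 fold change was 0.048 (SE 0.049, edgeR adjusted p = 0.835), and without mouse 17 it was 0.11 and passed (SE 0.037, edgeR adjusted p = 0.210). Gabrb1 had a log2 fold change of 0.077 with all mice, which did not pass, and of 0.13 without mouse 17, which did (edgeR adjusted p = 0.203). The exons of Gabrb1 and Gabra4 overlap on opposite strands at their starts on chromosome 5.

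Gabrg3, the third gamma subunit gene, had the largest positive value of the 34. It was at 18.2, 17.6 and 15.7 CPM in control mice and 17.7, 19.3 and 20.7 CPM in PLDP mice, with mouse 17 inside the control range (log2 fold change 0.16, SE 0.085, edgeR adjusted p = 0.621). Its values were chosen for printing after they were seen, as were those of Gabra6 above and of Pvalb, Slc6a11 and Gad2 below. Gabrd encodes the delta subunit of tonic, extrasynaptic receptors in cerebellar granule cells, thalamus and dentate gyrus. It was at 77.0, 73.4 and 73.2 CPM in control mice and 84.4, 79.7 and 75.2 CPM in PLDP mice. Only PLDP mouse 26 fell within the control range (log2 fold change 0.099, SE 0.052, edgeR adjusted p = 0.625). Gabre and Gabrq, for the epsilon and theta subunits of hypothalamic and brainstem neurons, were rare. Gabre had as few as 31 counts in a mouse, and its interval ran from 0.788-fold to 1.55-fold. Gabrq had at least 109 counts and its interval ran from 0.796-fold to 1.19-fold.

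The 12 GABA-A genes examined sit mostly in clusters, and clusters held values of both signs. On chromosome 5 the order was Gabrg1, Gabra2, Gabra4 and Gabrb1 within 1398 kb, with log2 fold changes of −0.14, 0.057, −0.024 and 0.077. On chromosome 7, Gabrg3 at 0.16 and Gabra5 at −0.13 lay within 793.6 kb. On chromosome 11, Gabra6 was at −0.054 and Gabrb2 at 0.048. On the X chromosome, Gabre, Gabra3 and Gabrq were at 0.14, −0.075 and −0.037. Differences between neighbours were not tested.

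The GABA-B subunits did not pass the threshold with all mice. Gabbr1, which binds GABA, took the most counts of the 34 genes, at 791, 794 and 735 CPM in control mice and 757, 796 and 781 CPM in PLDP mice. The diets overlapped widely (log2 fold change 0.0090, SE 0.038), and the 95% interval of the fold change was 0.951 to 1.06. Gabbr2, which couples the receptor to its G protein, had a log2 fold change of 0.059, which did not pass the threshold, and of 0.091 without mouse 17, which did (edgeR adjusted p = 0.269).

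Of the genes that handle GABA itself, Abat was lower in PLDP mice. Abat encodes the mitochondrial GABA transaminase that degrades GABA, and lies on chromosome 16 (8513429 to 8621568, plus strand). Its level was 426, 423 and 409 CPM in control mice and 379, 399.7 and 399 CPM in PLDP mice. No PLDP mouse reached the control range, and mouse 17 was the farthest from it. The log2 fold change was −0.095 (SE 0.038, 95% interval −0.18 to −0.015, edgeR adjusted p = 0.484), a fall of 6.40% in the group mean. Without mouse 17 it was −0.070 (SE 0.032, edgeR adjusted p = 0.383) and still passed. The threshold was passed in 4 of the 6 fits that left out a mouse and missed without control mouse 2 and without control mouse 5.

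Gad1, which encodes the larger glutamate decarboxylase that makes most GABA, did not pass the threshold. It was at 485, 484 and 508 CPM in control mice and 428, 498.5 and 498 CPM in PLDP mice. Mouse 17 was the lowest and the other PLDP mice lay within the control range (log2 fold change −0.052, SE 0.050, edgeR adjusted p = 0.822). Without mouse 17 the value was 0.017. Gad2, which encodes the smaller, synaptic form, was also lowest in mouse 17, at 161 CPM, with 179 to 184 CPM in control mice and 187 and 192 CPM in PLDP mice 22 and 26 (log2 fold change −0.012, edgeR adjusted p = 0.971).

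Slc32a1, the vesicular GABA and glycine transporter, was at 175, 171 and 171 CPM in control mice and 168, 162 and 167 CPM in PLDP mice. Every PLDP mouse was below every control mouse, and the difference did not pass the threshold (log2 fold change −0.059, SE 0.039, edgeR adjusted p = 0.717). An exon of Slc32a1 overlaps the opposite-strand gene Gm14205. Slc6a11, the GABA transporter of astrocytes, was at 267, 281 and 261 CPM in control mice and 210.3, 259.8 and 267 CPM in PLDP mice 17, 22 and 26. Mouse 17 stood far below the rest, and the log2 fold change of −0.14 (SE 0.065, edgeR adjusted p = 0.590) became −0.035 without it. Slc6a13, a transporter of meninges and vessels, had means of 17.1 ± 2.57 CPM in control and 17.8 ± 2.78 CPM in PLDP mice (SD, n = 3 each), with overlapping diets.

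Among the interneuron markers none passed the threshold with all mice. Cck, the peptide of a basket cell class that many excitatory neurons also express, had the highest CPM of this group in the mean of all 6 mice (Pvalb was higher in control mice), at 173, 172 and 169 CPM in control mice and 185, 168 and 186 CPM in PLDP mice (log2 fold change 0.071, SE 0.044, edgeR adjusted p = 0.690). Mouse 22 was below the controls and the other PLDP mice were above them. Vip, the peptide of interneurons that inhibit other interneurons, was at 19.2, 19.4 and 20.2 CPM in control mice and 20.5, 21.3 and 21.4 CPM in PLDP mice. All PLDP mice were higher, with a log2 fold change of 0.10 that did not pass the threshold (SE 0.070, edgeR adjusted p = 0.734).

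Pvalb, the calcium buffer of fast-spiking interneurons and Purkinje cells, was nearly constant in control mice and split in PLDP mice. It was at 175.5, 175 and 172 CPM in the controls, at 187 CPM in mouse 17, and at 149 and 150.5 CPM in mice 22 and 26. Thus 1 PLDP mouse was above all controls and 2 were below them. The log2 fold change was −0.10 (SE 0.065, edgeR adjusted p = 0.690) with all mice and −0.22 (SE 0.037, edgeR adjusted p = 0.00697) without mouse 17. The summed level of 6 Purkinje cell markers was 1258 to 1501 CPM in control mice and 1428 to 1459 CPM in PLDP mice, and none of the 6 passed the threshold with all mice, while 1 was lower without mouse 17 and 1 without control mouse 5.

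Sst, the peptide of somatostatin interneurons and a textbook target of the transcription factor CREB, differed little (log2 fold change 0.050, SE 0.043, edgeR adjusted p = 0.795), at 116 ± 3.23 CPM in control and 120.3 ± 2.86 CPM in PLDP mice (SD, n = 3 each). Its cyclic AMP response element is shown because it was the only match to TGACGTCA in the 29 genes with a RefSeq window (both strands searched; the motif is its own reverse complement). It starts 48 bases before the RefSeq start site, within chr16:23890874-23890903 (GRCm38.p6, minus strand), and is in capitals.
Sst: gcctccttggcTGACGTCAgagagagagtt
Of all RefSeq windows 1.55% held the element. The other class markers were Lamp5, a marker of neurogliaform cells, Calb2, the calcium buffer calretinin, and Reln. Reln is a secreted protein of superficial and somatostatin interneurons, among other cells. The log2 fold changes of Lamp5, Calb2 and Reln were −0.068, −0.061 and 0.10 with overlapping diets. Reln was lowest in control mouse 5, at 125 CPM. Its log2 fold change was 0.026 without that mouse and 0.155 without control mouse 10. The part of cells other than interneurons in these values was not tested. Without mouse 17, Lamp5 (−0.13) and Calb2 (−0.11) passed lower and Reln (0.14) passed higher in edgeR, with adjusted p between 0.286 and 0.290.

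None of the lineage genes passed the threshold, and their diets overlapped. Dlx6os1, the long noncoding RNA of the Dlx5 and Dlx6 locus, took the most counts of them. It was at 50.8, 61.2 and 54.0 CPM in control mice and 43.7, 67.0 and 65.7 CPM in PLDP mice 17, 22 and 26. Mouse 17 was below every control mouse and the other PLDP mice were above every one (log2 fold change 0.088, SE 0.11, edgeR adjusted p = 0.884). Without mouse 17 the value was 0.26 (SE 0.062, edgeR adjusted p = 0.0477). The identifier counted here is, in GENCODE M21, a feature of 146 bases at the 5′ end of a longer gene with the same symbol, and its extent in the annotation used for counting is not given in the sources used here. Dlx1, at 33.99 CPM in mouse 17 and 40.0 to 46.5 CPM in the other mice, had a log2 fold change of −0.041. Dlx2, Dlx5 and Dlx6 had means between 7.39 and 9.26 CPM with log2 fold changes between −0.031 and 0.042. Lhx6, needed for parvalbumin and somatostatin cells, was at 0.037, and Nkx2-1, which specifies their origin, was at −0.061 with an interval from 0.697-fold to 1.32-fold. Exons of Dlx1, Dlx6 and Reln overlap opposite-strand genes, and those of Lhx6 a gene on its own strand.

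Levels can be set beside each other only per length. In CPM per kb of merged exons, control mice had 167 ± 1.65 for Pvalb and 161 ± 4.48 for Sst (SD, n = 3 each), which lie within 2 SD of the more variable value, followed by 131 ± 1.46 for Cck, 99.6 ± 4.26 for Gabbr1 and 90.1 ± 3.34 for Calb2. Gad1 (64.5 ± 1.79) was above Gad2 (30.9 ± 0.451), and Slc32a1 stood at 61.6 ± 0.879. Of the GABA-A subunits, Gabra6 (40.7 ± 6.55) and Gabrb2 (39.1 ± 1.28) were the highest and did not differ beyond their spread. Gabrd, Gabra3 and Gabra5 followed at 25.9, 24.7 and 19.3. Gabre, at 0.392, was the lowest of the 33 genes with a level per length. In PLDP mice Sst (167 ± 3.97) stood above Pvalb (156 ± 20.4) in the mean, within the spread of Pvalb.

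**Figure D3:**
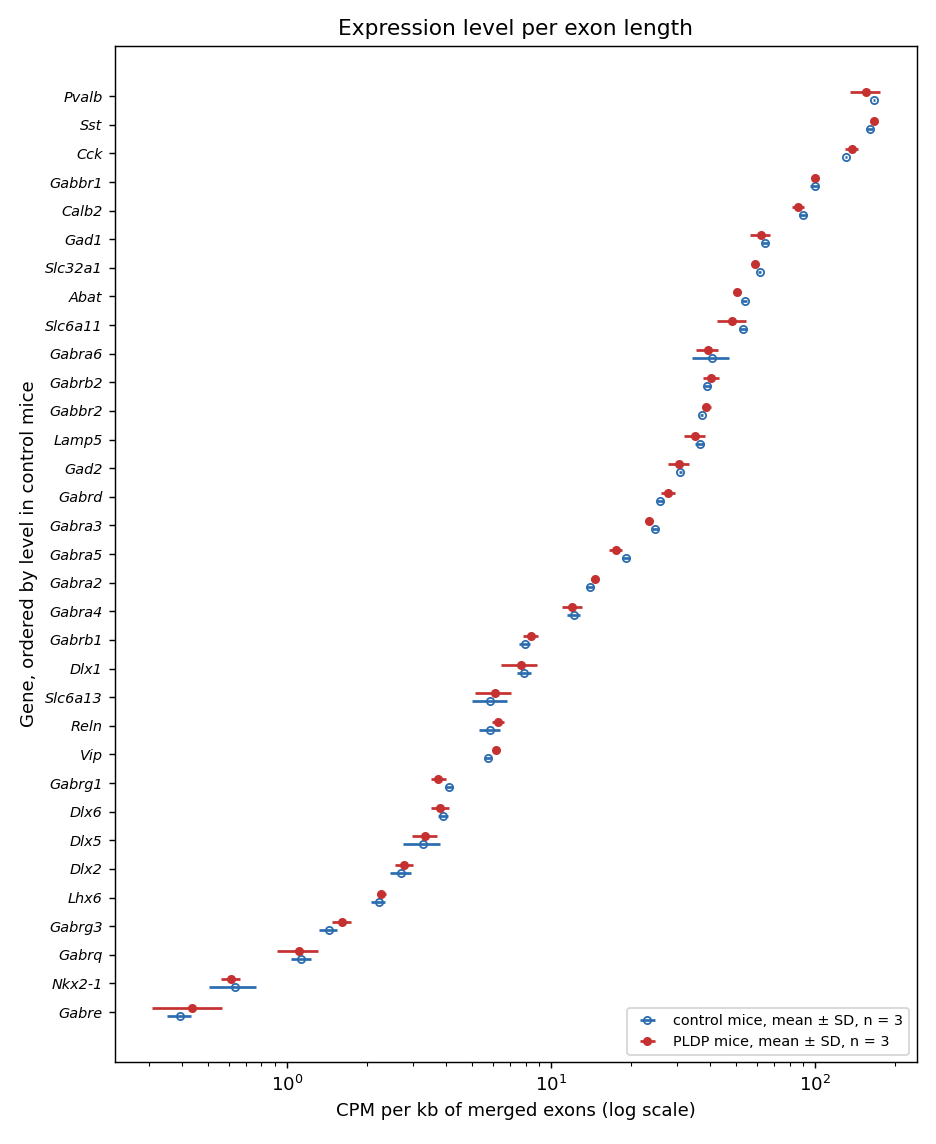
Level of 33 of the genes in CPM per kb of merged exons (x axis, log scale), ordered by the control mean. Points are means and bars are the SD over 3 mice, open blue for control and filled red for PLDP mice. Levels span from 0.392 for Gabre to 167 for Pvalb in control mice, and Dlx6os1 is left out because its counted length is unknown.

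The result for the group as a whole rested on which mice were included. Leaving out each mouse in turn gave 0 to 6 genes higher and 0 to 4 lower. Without PLDP mouse 17, 6 genes were higher (Dlx6os1, Gabrb1, Gabrb2, Gabbr2, Gabrg3 and Reln) and 4 were lower (Pvalb, Lamp5, Calb2 and Abat). That is 29.4% of the 34 genes, where the same fit called 12.5% of all features, 6.86% higher and 5.69% lower. Of the 10 genes, 2 had an adjusted p under 0.05, Pvalb and Dlx6os1. Without control mouse 2, 1 gene was higher (Gabrg3) and 5.95% of all features were called, 3.36% higher and 2.59% lower. Without control mouse 5, 1 was lower (Gabra6), beside 6.49% (3.77% higher and 2.72% lower). Without control mouse 10, 1 was higher (Reln) and 2 lower, beside 8.47% (4.93% and 3.55%). Without PLDP mouse 22, 1 was higher (Cck) and 3 lower, beside 8.18% (4.2% and 3.98%). Without PLDP mouse 26, 1 was higher (Gabrd) and 4 lower, beside 7.24% (3.91% and 3.33%). In both of these last fits Slc6a11 was among the lower genes, and mouse 17 then made up 1 of 2 PLDP mice. Abat was the only one of the 3 genes called with all mice that was also called without mouse 17. Each such fit has 2 mice on 1 diet.

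**Figure D4:**
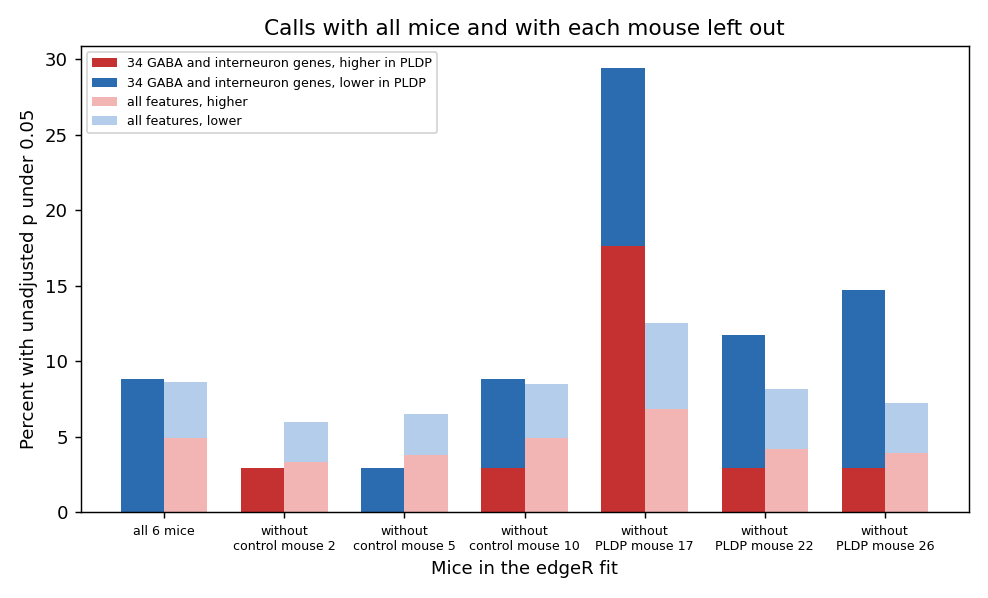
Percent of genes with an unadjusted edgeR p under 0.05 (y axis) with all 6 mice and with each mouse left out. The left bar of each pair is the 34 GABA and interneuron genes and the right bar is all features tested, split into higher (red) and lower (blue) in PLDP mice. The left bar is highest without PLDP mouse 17, at 29.4% beside 12.5%.

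Other genes of the pathway were read from lists chosen with earlier results of these data known. Of 19 tested genes that anchor or traffic GABA-A receptors, 5 were higher in PLDP mice and 0 lower, which is 26.3% beside a background of 4.91%, and the list median was 0.042 on the log2 scale. The 3 with the smallest p were Plcl2, an adaptor that binds receptor-associated proteins, Shisa7, a GABA-A receptor auxiliary protein, and Nlgn2, the adhesion protein of inhibitory synapses. Plcl2 was at 58.6, 62.9 and 62.7 CPM in control mice and 70.2, 71.0 and 81.6 CPM in PLDP mice (log2 fold change 0.27, SE 0.060, edgeR adjusted p = 0.136). Shisa7 had a log2 fold change of 0.18 (edgeR adjusted p = 0.283) and Nlgn2 of 0.12 (edgeR adjusted p = 0.363). In all 3 the diets did not overlap. Leaving out each mouse in turn left 3 (without PLDP mouse 26) to 5 (without PLDP mouse 17) higher and 0 to 1 lower.

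Of 8 tested chloride transport genes, which set the ion gradient that GABA-A receptors use, 0 were higher and 1 was lower (12.5%, beside 3.69% of all features), Stk39, a kinase that activates chloride import (log2 fold change −0.11, edgeR adjusted p = 0.527). Of 10 tested GABA-B auxiliary and effector genes, 1 was higher (10.0%, beside 4.91% of all features), Kcnj6, a subunit of the potassium channel that GABA-B receptors open. It was at 55.1, 51.0 and 54.9 CPM in control mice and 57.7, 63.9 and 65.1 CPM in PLDP mice, without overlap (log2 fold change 0.21, SE 0.057, edgeR adjusted p = 0.261). Of 15 tested genes of the glutamine cycle and GABA metabolism, 1 was higher (6.67%), Pdxk, the kinase that makes the pyridoxal phosphate cofactor of glutamate decarboxylase (0.12, edgeR adjusted p = 0.396). Of 6 tested endozepine and neurosteroid genes, 1 was higher (16.7%), Cyp11a1, the first enzyme of steroid synthesis, from 2.48 to 3.26 CPM (edgeR adjusted p = 0.561). The tested rho subunit gene did not pass. Of 30 other interneuron genes, 1 was higher (Nos1, neuronal nitric oxide synthase, 0.11) and 1 lower (Nxph1, a neurexin ligand, −0.19), which is 3.33% in each direction. These small counts moved when a mouse was left out. Without PLDP mouse 17 the chloride list had 1 higher and 0 lower, the GABA-B list 3 higher, the metabolism list 2 higher and 2 lower, and the other interneuron genes 2 higher and 0 lower. The lower chloride gene was also lost without control mouse 2 or 10. The metabolism list had 1 lower without control mouse 10 or PLDP mouse 22. The endozepine and neurosteroid list had 2 higher without PLDP mouse 22, 1 without control mouse 5 and 0 without any of the others. The other interneuron genes had 0 called without control mouse 5, and 0 higher with 3 and 2 lower without PLDP mice 22 and 26. None of the genes named from these lists had an adjusted p under 0.05.

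Levels of regional markers in the libraries differed between the diets. Whether the tissue content or the expression of these markers differed was not tested. Of 14 tested hindbrain and spinal cord markers, 13 were lower in PLDP mice (92.9% beside 3.69%), with a median log2 fold change of −0.94. Of the tested markers 13 were lower also without mouse 17 or control mouse 5, 11 without PLDP mouse 26, 10 without control mouse 2 or 10 and 9 without PLDP mouse 22. The sums over all 18 listed, given above, did not overlap between the diets. The list includes Slc6a5 and Glra1, the glycine transporter and receptor subunit of inhibitory hindbrain neurons, which made up most of these sums. Slc6a5 had means of 45.2 CPM in control and 28.7 CPM in PLDP mice (log2 fold change −0.66, SE 0.102, edgeR adjusted p = 0.0369). Glra1 had means of 86.95 and 61.8 CPM (log2 fold change −0.50, SE 0.086, edgeR adjusted p = 0.0592). In both the diets did not overlap. Of 11 cortical and hippocampal excitatory markers, 4 were higher (36.4% beside 4.91%) and 0 lower. Without control mouse 10 or without PLDP mouse 22, 2 were higher, and the other fits gave 3 or 4. Their sum was 1293 to 1343 CPM in control mice and 1372 to 1415 CPM in PLDP mice. Most of that sum was Slc17a7, with means of 913 and 958 CPM, which did not pass the threshold and whose diets overlapped. For all 11 hypothalamic markers listed the sum was 58.1 to 60.5 CPM in control and 49.2 to 56.2 CPM in PLDP mice, and 1 of the 7 tested was lower (14.3% beside 3.69%). Without control mouse 2 it was 0, without control mouse 5 it was 2 lower and 1 higher, and without mouse 17 it was 1 lower and 1 higher. For 8 choroid plexus markers the sum was 759 to 816 CPM and 595 to 757 CPM, most of it Ttr (means 708 and 607 CPM). The smallest sum was in mouse 17, and 2 of the markers were lower (25.0%). The count was 4 without PLDP mouse 22 and 1 without PLDP mouse 17, control mouse 2 or control mouse 5. None of these 4 sums overlapped between the diets, and their part in the lower levels of Abat, Gabra5, Gabrg1, Gabra3 and Slc32a1, or in the higher levels of Vip, Plcl2, Shisa7, Nlgn2 and Kcnj6, was not tested.

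Sums of neuronal, astrocyte, striatal and oligodendrocyte markers overlapped between the diets. The sum of 6 neuronal markers was 5428 to 5569 CPM in control and 5421 to 5628 CPM in PLDP mice, with 1 higher (16.7%). For 9 astrocyte markers it was 3038 to 3087 CPM and 2985 to 3193 CPM with 2 lower (22.2%), for 10 striatal markers 812 to 862 CPM and 812 to 856 CPM with 0 called, and for 6 oligodendrocyte markers 1849 to 1997 CPM and 1797 to 1999 CPM with 2 lower (33.3%). These shares stand beside 4.91% higher and 3.69% lower over all features. Mouse 17 had the lowest neuronal and astrocyte sums of the 6 mice. The midbrain and thalamus, olfactory bulb, meninges and blood sums also overlapped, with 1 lower (10.0%), 1 higher (20.0%), 1 in each direction (12.5%) and 0 called. The 5 microglial markers summed to 255 to 268 CPM in control and 244 to 254 CPM in PLDP mice with 1 lower (20.0%), and the 5 endothelial markers to 173 to 176 CPM and 176.5 to 192 CPM with 2 higher (40.0%), both without overlap. Counts in these lists were small and moved when a mouse was left out. The oligodendrocyte markers had 0 called and the blood markers 4 lower without control mouse 5, the meningeal markers 3 lower without control mouse 5, the midbrain and thalamus markers 3 higher without mouse 17, and the astrocyte markers 1 higher and 3 lower without mouse 17.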

How the data were processed

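Polyadenylated RNA from whole brains of 3 control and 3 PLDP mice was sequenced with a stranded kit. The authors deposited whole-number read counts per gene and mouse, without normalization. The submitters' processing notes name cutadapt 2.9, HISAT2 2.2.0, featureCounts 2.6.0, DESeq2 1.6.3 and the builds GRCm38 and GRCh38. The strand setting, the treatment of shared reads and the annotation are not given in the sources used here.

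Symbols, exons and coordinates were joined by Ensembl identifier from GENCODE M21 (GRCm38), which held 54777 of 55034 identifiers. The other 257, and 5320 numbered features, stayed in the tests. Mitochondrial genes took 2.53% to 2.80% of counts. The counts were tested in edgeR 4.0.16 (R 4.3.3) with filterByExpr (minimum count 10, total 15), TMM scaling and the quasi-likelihood test (glmQLFit, glmQLFTest), fitting diet alone, with adjustment over 18580 features. The fit was first tested on simulated data. Each file is 1 mouse, so p-values measure the spread between these mice. An exact permutation test of 3 against 3 mice cannot go below a two-sided p of 0.10. The genes, lists and tests were chosen with earlier results of these data known. Values in every mouse are printed for genes with p under 0.05, genes whose diets do not overlap and the gene with the highest mean CPM of each role, and for further genes where the text says so. Of the pathway lists, genes with p under 0.05 are named, at most 3 per list and direction.

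Alternatives were relative log expression, upper-quartile factors, library size only, no filter, at least 10 counts in every mouse, DESeq2 1.42.0, limma voom (3.58.1) and leaving out each mouse. RefSeq promoter windows (GRCm38.p6) matched 29 of the 34 genes. Those of Abat, Calb2, Dlx5, Dlx6 and Gabrd were not used here. Python 3.11.15, pandas 2.3.3 and matplotlib 3.10.9 were used for tables and plots.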

Additional observations from a re-analysis of the deposited data

How the results depend on the processing

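Counts of calls moved with the filter and the tool. In 238 comparisons of a gene's fold change under other normalizations, filters and tools (34 genes, 7 settings), 230 kept their direction and side of the threshold, 3 lost the call, 5 gained it and 0 changed sign. Gabra5 lost its call in DESeq2, and Gabrg1 in DESeq2 and with upper-quartile factors. Slc6a11 gained a call, lower, with library size only, without a filter and in limma voom, and Pvalb (lower) and Reln (higher) gained one without a filter. Without a filter, 1 of the 34 genes was higher and 5 were lower, and in DESeq2 1 was lower. Over all features, DESeq2 called 564 higher and 362 lower, and without a filter 1314 were higher and 1046 lower. The cause was not tested.

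Leaving out each mouse, 640 to 1293 features were higher and 493 to 1072 lower, and 0 to 6 of the 34 genes were higher and 0 to 4 lower. The median log2 fold change of the 34 ran from −0.017 to 0.040. Of 204 such comparisons, 25 changed sign, in 16 genes. Their log2 fold changes ran from −0.14 to 0.085 for Dlx1, from −0.006 to 0.12 for Dlx2, from −0.086 to 0.14 for Dlx5, from −0.099 to 0.001 for Dlx6, from −0.024 to 0.26 for Dlx6os1, from −0.027 to 0.028 for Gabbr1, from −0.067 to 0.046 for Gabra4, from −0.18 to 0.020 for Gabra6, from −0.064 to 0.34 for Gabre, from −0.18 to 0.062 for Gabrq, from −0.090 to 0.017 for Gad1, from −0.060 to 0.061 for Gad2, from −0.13 to 0.000 for Lamp5, from −0.014 to 0.067 for Lhx6, from −0.16 to 0.12 for Nkx2-1 and from −0.071 to 0.18 for Slc6a13.

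No paired analysis was possible because the diets share no mouse numbers. With 3 mice per diet, whole-brain RNA and at least 31 counts per gene and mouse, the precision was lowest for the rare genes Gabre and Nkx2-1, and a change in 1 brain region is diluted.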
